A study of Mus musculus with 9 samples.

Results

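The microglial identity genes described here are 9 genes that are widely used to recognise microglia, namely Csf1r, Aif1, Tmem119, P2ry6, P2ry12, P2ry13, Gpr34, Cx3cr1 and Sall1. They were picked by gene name from a table of 40993 genes, and all 9 were found. Their transcript levels were measured by RNA-seq in BV2, an immortalized murine microglial cell line, so every group shares the same immortalized background and no freshly isolated microglia are among the libraries. Of the 9 libraries, 3 were from non-treated control cells and 3 each were from cells given MNPs@SiO2(RITC), magnetic nanoparticles with a cobalt ferrite core and a silica shell that holds the dye rhodamine B isothiocyanate. The treatment lasted 12 h at 0.01 or 0.1 µg/µl, which is 10 or 100 µg/ml. The labels do not say whether the 3 libraries of a group came from separate cultures, so the p-values measure the spread between these libraries, which may be technical.

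Microglia are the resident macrophages of the brain. Their survival depends on signalling through Csf1r, a receptor tyrosine kinase, and their resting state in brain tissue is marked by nucleotide receptors, by the chemokine receptor Cx3cr1 and by the transcription factor Sall1, under the influence of TGF-beta from their surroundings. Microglia kept in culture are known to lose part of this set, and immortalized lines are used with that in mind.

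Expression is given as FPKM, fragments scaled by transcript length and by the number of mapped fragments, so that levels can be compared between genes. A gene whose 9 values averaged 1 FPKM or more was taken as expressed and was also the requirement for testing. By this measure 4 of the 9 genes were expressed in BV2 cells, in the order Csf1r, Aif1, Tmem119 and P2ry6, and 5 were below it, in the order P2ry13, Gpr34, P2ry12, Cx3cr1 and Sall1. Only Csf1r, Aif1 and Tmem119 were at or above 1 FPKM in every library. P2ry6 was just inside the limit, with a mean of 1.01 FPKM and 5 of 9 libraries at 1 FPKM or more, and the nearest gene outside it was P2ry13 with a mean of 0.369 FPKM. A total of 7 of the 9 genes were above 0 in every library, and the exceptions were Cx3cr1 and Sall1. The levels spanned a wide range. Mean Csf1r was 26.3 times mean Aif1, Aif1 was 2.38 times Tmem119, Tmem119 was 2.12 times P2ry6 and P2ry6 was 2.74 times P2ry13, and none of these neighbouring ranges overlapped over the 9 libraries. Further down the order was less firm. P2ry13 was above Gpr34 in 9 of 9 libraries although their ranges overlapped, whereas Gpr34 was above P2ry12 in only 5 of 9, so those 2 genes could not be placed in order.

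**Figure D1:**
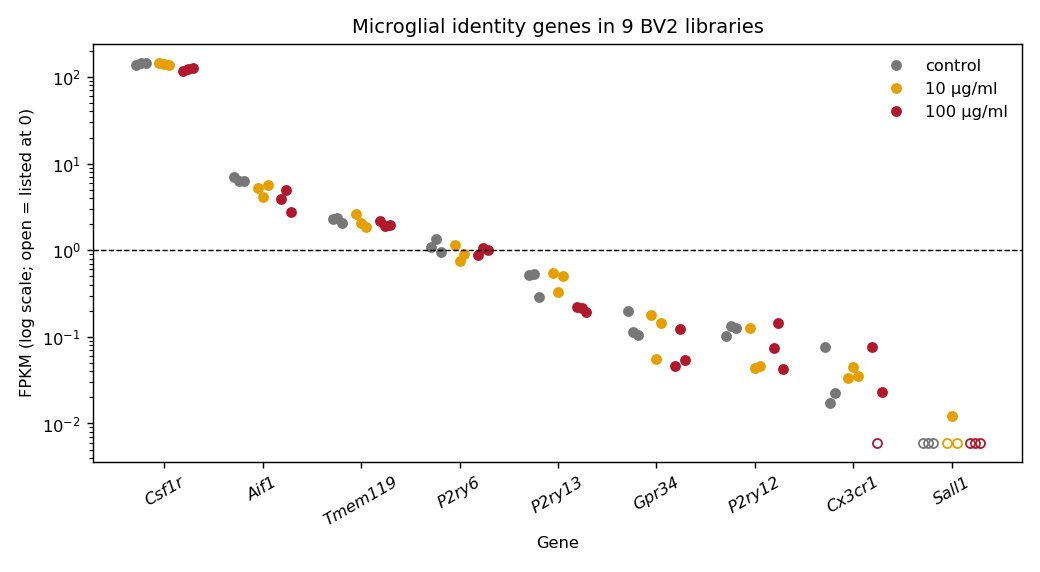
Level of each microglial identity gene in FPKM (log axis) in the 9 BV2 libraries; each point is 1 library, coloured by group, open points are libraries in which the gene is listed at 0, drawn at an arbitrary low position, and the dashed line is 1 FPKM. Csf1r, Aif1 and Tmem119 sit above the line in every library, P2ry6 straddles it, and the other 5 genes sit below it.

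The label "Microglia" was set against marker lists of several cell types. All 10 macrophage markers were expressed, and none of the neuron (4 found), astrocyte (5), oligodendrocyte (5) or lymphocyte (4) markers reached a mean of 1 FPKM. The defining markers Rbfox3, Snap25, Syt1, Aqp4, Mog, Olig1, Cldn5 and the 4 lymphocyte markers were listed at 0 in all libraries. Of 9 markers of monocytes and border macrophages, 4 were expressed, namely Mrc1, Ms4a7, S100a8 and Clec12a, and Ly6c2 and Cd163 were listed at 0. Of the endothelial markers, Flt1 alone was expressed, with a mean of 20.9 FPKM. The macrophage label was therefore borne out by its markers. Of Tmem119, Sall1 and P2ry12, which are used to tell microglia from other macrophages, only Tmem119 was expressed. Its level was low in all 9 libraries, with a mean of 2.15 FPKM. Sall1 and P2ry12 were near 0, as was Cx3cr1. The summed level of the macrophage markers was 2700 to 2900 FPKM in control cells, 2610 to 2860 FPKM at 10 µg/ml and 2220 to 2530 FPKM at 100 µg/ml. This sum was dominated by Lyz2, which encodes lysozyme, with a mean of 1290 FPKM in control cells and 1010 FPKM at 100 µg/ml. The markers did not all lie on one side: at 100 µg/ml against control, 9 of the 10 had log2 fold changes below 0. Adgre1, which encodes F4/80, was the 1 that fell past an adjusted p of 0.05, where 1.41% of all genes did (-0.67; limma, adjusted p = 0.00224). Cd68 was at -0.03, and Cd14 was at 0.45 (limma, adjusted p = 0.0621) with all 3 libraries above the controls. In bulk RNA of a single line, fewer cells that express a gene and less of its RNA per cell cannot be told apart.

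Csf1r, the receptor for Csf1 and Il34, was by far the most abundant of the 9 genes, and only 1.48% of the genes in the table had a higher mean. The gene (ENSMUSG00000024621) lies on chromosome 18 from 61105572 to 61132149 on the plus strand (GRCm38), where it overlaps Hmgxb3 on the opposite strand. Csf1r was at 138, 145 and 143 FPKM in control cells, at 144, 140 and 138 FPKM at 10 µg/ml, and at 116, 124 and 128 FPKM at 100 µg/ml. The 3 libraries at 100 µg/ml were below all other libraries, and those at 10 µg/ml lay among the controls. The log2 fold change at 100 µg/ml against control was -0.21 ± 0.05 (SE; 95% interval -0.32 to -0.09), and it did not pass the test over all genes (limma, adjusted p = 0.0783). Against 10 µg/ml it was -0.19 (interval -0.31 to -0.08; limma, adjusted p = 0.141). All fold changes here are on the log2(FPKM + 1) scale, which understates differences of genes with low values. At 10 µg/ml the difference from control was -0.01, with an interval of -0.13 to 0.10.

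Aif1 encodes Iba1, the calcium-binding and actin-bundling protein that is the usual stain for microglia. The gene (ENSMUSG00000024397) lies on chromosome 17 from 35170991 to 35176068 on the minus strand (GRCm38). Aif1 was at 7.09, 6.30 and 6.22 FPKM in control cells, at 5.17, 4.09 and 5.65 FPKM at 10 µg/ml, and at 3.92, 4.92 and 2.76 FPKM at 100 µg/ml. Every treated library was below every control library, and the libraries of both doses overlapped each other. The mean level was 6.54 ± 0.478 FPKM (SD, n = 3) in control cells, 4.97 ± 0.800 at 10 µg/ml and 3.87 ± 1.08 at 100 µg/ml, so that the mean at 100 µg/ml was 0.592 times and that at 10 µg/ml 0.760 times the control mean. The log2 fold change at 100 µg/ml was -0.65 ± 0.17 (95% interval -1.03 to -0.28), the largest in size among the 4 genes tested, and it did not pass the adjusted threshold (limma, adjusted p = 0.0841). At 10 µg/ml it was -0.34 (interval -0.72 to 0.03; limma, adjusted p = 1). The difference between the doses was -0.31 (interval -0.68 to 0.07; limma, adjusted p = 0.436). The short transcript limits precision: by an approximate estimate, 74.3 to 76.4 fragments stood behind a control value and 32.3 to 51.9 behind a value at 100 µg/ml. Aif1l, the related gene whose product resembles Iba1, was listed at 0 in all 9 libraries.

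Tmem119 encodes a membrane protein that distinguishes resident microglia from incoming macrophages in brain tissue. The gene (ENSMUSG00000054675) lies on chromosome 5 from 113793729 to 113800516 on the minus strand. Tmem119 was at 2.32, 2.35 and 2.05 FPKM in control cells, at 2.65, 2.07 and 1.87 FPKM at 10 µg/ml, and at 2.17, 1.90 and 1.98 FPKM at 100 µg/ml. All groups overlapped. The log2 fold change against control was -0.10 (95% interval -0.37 to 0.16) at 100 µg/ml and -0.03 (interval -0.29 to 0.24) at 10 µg/ml, neither past the test (limma, adjusted p = 0.683 and 1). These intervals leave room for differences of the size measured for Csf1r, though not for that of Aif1 at 100 µg/ml.

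**Figure D2:**
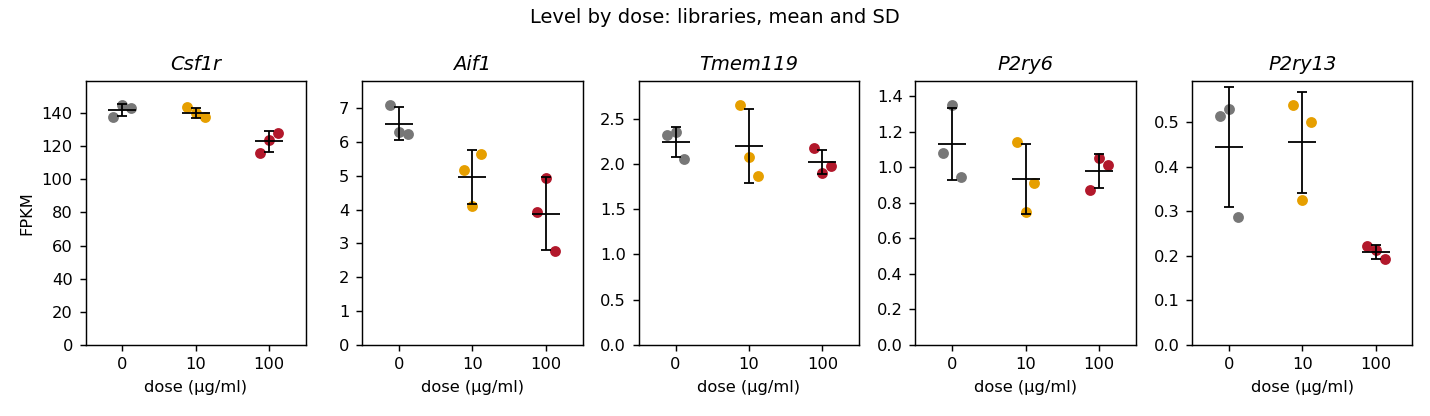
FPKM of the 5 most abundant identity genes against the MNPs@SiO2(RITC) dose (0, 10 and 100 µg/ml); points are libraries, the horizontal mark is the mean and the bar the SD of 3 libraries, and each vertical axis starts at 0. Aif1 is lower at both doses than in any control library, Csf1r and P2ry13 are lower at 100 µg/ml than in any other library, and Tmem119 and P2ry6 overlap between all groups.

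The nucleotide receptors among the 9 genes were at or below the limit of expression. P2ry6, a receptor for UDP that is linked to phagocytosis in microglia, lies on chromosome 7 from 100937638 to 100964391 on the minus strand (ENSMUSG00000048779). P2ry6 was at 1.08, 1.35 and 0.946 FPKM in control cells, at 1.14, 0.750 and 0.909 FPKM at 10 µg/ml, and at 0.870, 1.05 and 1.01 FPKM at 100 µg/ml. The groups overlapped, and about 19.7 to 36.3 fragments stood behind each value. The log2 fold change against control was -0.10 (95% interval -0.41 to 0.21) at 100 µg/ml and -0.14 (interval -0.45 to 0.17) at 10 µg/ml (limma, adjusted p = 0.733 and 1).

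P2ry13 and P2ry12 are receptors for ADP, and P2ry12 guides microglial processes towards sites of injury. The genes are neighbours on the minus strand of chromosome 3, with 5388 bases between them. P2ry13 (ENSMUSG00000036362) spans 59207896 to 59210882, and P2ry12 (ENSMUSG00000036353) spans 59216271 to 59262831 (GRCm38). Both lie within Med12l, which is on the opposite strand and was at 0.0433 to 0.167 FPKM. Promoter windows of 250 bases before to 50 after the start, from RefSeq on GRCm38.p6, were held for 5 of the 9 genes. The windows of these receptor genes are shown with that of Aif1, the most abundant of the 5. They set a gene below the limit of expression beside its lower neighbour and an expressed gene. Capitals mark the core of the site bound by PU.1, the macrophage transcription factor encoded by Spi1, searched as GAGGAAG on both strands with no overlap between matches. The windows lie at chr3:59210833-59211132, chr3:59262936-59263235 and chr17:35176003-35176302, all on the minus strand and written 5′ to 3′.
P2ry13: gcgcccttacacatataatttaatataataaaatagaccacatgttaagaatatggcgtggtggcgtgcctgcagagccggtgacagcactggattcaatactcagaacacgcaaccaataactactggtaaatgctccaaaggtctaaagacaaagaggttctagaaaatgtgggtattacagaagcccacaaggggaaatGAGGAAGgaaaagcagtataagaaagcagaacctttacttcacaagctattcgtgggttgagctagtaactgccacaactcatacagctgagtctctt
P2ry12: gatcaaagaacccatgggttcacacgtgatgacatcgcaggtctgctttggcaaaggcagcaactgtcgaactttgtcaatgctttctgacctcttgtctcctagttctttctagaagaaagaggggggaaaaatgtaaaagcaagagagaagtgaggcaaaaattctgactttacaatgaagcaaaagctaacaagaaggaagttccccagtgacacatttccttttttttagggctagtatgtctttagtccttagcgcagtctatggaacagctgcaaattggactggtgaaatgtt
Aif1: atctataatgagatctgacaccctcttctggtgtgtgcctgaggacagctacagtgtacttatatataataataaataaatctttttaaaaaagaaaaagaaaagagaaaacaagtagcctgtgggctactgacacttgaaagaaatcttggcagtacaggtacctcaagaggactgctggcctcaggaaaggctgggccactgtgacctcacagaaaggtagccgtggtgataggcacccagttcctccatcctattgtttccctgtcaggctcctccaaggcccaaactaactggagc
The core was found 1 time in the P2ry13 window, with its first base at position -48 from the start, and not in those of P2ry12, Aif1, Cx3cr1 or Sall1. It occurred in 13.6% of 32851 promoter windows of this length. Its GGAA, the general ETS core, occurred on either strand in 96.0% of them. The match is a description of letters and not of binding.

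P2ry13 was at 0.515, 0.529 and 0.288 FPKM in control cells, at 0.539, 0.326 and 0.500 FPKM at 10 µg/ml, and at 0.222, 0.214 and 0.192 FPKM at 100 µg/ml. All 3 libraries at 100 µg/ml were below the other 6, and the mean there was 0.472 times the control mean, whereas the mean at 10 µg/ml was 1.03 times the control mean. About 9.9 to 18.5 fragments stood behind a control value and 6.5 to 8.3 behind a value at 100 µg/ml. P2ry13 was below the requirement of 1 FPKM and was therefore tested only in fits without that filter, where the log2 fold change at 100 µg/ml against control was -0.25 (95% interval -0.44 to -0.06) and did not pass the test (limma, adjusted p = 0.214). With a pseudocount of 0.1, a setting added after the data were seen, the fold change was -0.78 (interval -1.38 to -0.18; limma, adjusted p = 0.230). P2ry13 was among the genes that the study had picked for its networks from these same libraries, as was P2ry12, so the direction of either is not independent evidence. P2ry12 was at 0.102, 0.135 and 0.126 FPKM in control cells, at 0.125, 0.0441 and 0.0455 FPKM at 10 µg/ml, and at 0.0745, 0.146 and 0.0429 FPKM at 100 µg/ml. These values correspond to about 1.3 to 4.4 fragments in a library, and the groups overlapped. A difference between groups was not detectable at this depth.

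Gpr34, a receptor for lysophosphatidylserine, lies on chromosome X from 13632089 to 13640858 on the plus strand (ENSMUSG00000040229). The gene lies within Cask, which is on the opposite strand and was at 7.0 to 30.4 FPKM. The study names both a stranded kit and a TruSeq RNA Sample Prep Kit, so whether the libraries keep the strand is not settled. The strand setting of the counting is not given in the sources used here. A part of the Gpr34 signal from Cask therefore cannot be told apart. Gpr34 was at 0.197, 0.115 and 0.106 FPKM in control cells, at 0.181, 0.0561 and 0.146 FPKM at 10 µg/ml, and at 0.0457, 0.122 and 0.0534 FPKM at 100 µg/ml. The groups overlapped, and about 1.4 to 5.1 fragments stood behind each value.

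Cx3cr1, the receptor for the neuronal chemokine fractalkine (Cx3cl1), was near 0 in every library. The gene (ENSMUSG00000052336) lies on chromosome 9 from 119901616 to 120068283 on the minus strand, and its model in the table overlaps Wdr48, Gorasp1, Ttc21a, Csrnp1 and Xirp1. Cx3cr1 was at 0.0773, 0.0172 and 0.0227 FPKM in control cells, at 0.0337, 0.0452 and 0.0356 FPKM at 10 µg/ml, and at 0.0761, 0 and 0.0229 FPKM at 100 µg/ml. No library held more than about 5.1 fragments, and the groups overlapped. Wdr48 and Gorasp1 were at 20.6 to 23.5 and 8.28 to 10.7 FPKM, so a few fragments of Cx3cr1 cannot be told apart from those of its neighbours. Sall1, a zinc finger transcription factor that maintains microglial identity in the brain, lies on chromosome 8 from 89027248 to 89044162 on the minus strand (ENSMUSG00000031665). It was listed at 0 in 8 of 9 libraries and at 0.0123 FPKM, about 0.9 of a fragment, in replicate 2 at 10 µg/ml. A 0 may also stand for an estimate that failed.

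Over the whole set, 0 of the 4 genes tested passed the adjusted threshold at 100 µg/ml against control, where 2.11% of all 11161 genes tested did (limma). At an unadjusted p under 0.05 it was 2 of 4, Csf1r and Aif1, against 19.4% of all genes, and for the same 2 genes the libraries at 100 µg/ml were all below the controls, which held for 11.4% of all genes. With 4 genes, these shares cannot be set firmly apart from the background. The 4 fold changes were all below 0, with a median of -0.16 beside 0 for all genes tested. At 10 µg/ml against control, 0 of 4 passed, as did 0% of all genes, and 0 of 4 had an unadjusted p under 0.05 (3.28% of all genes). Aif1 was the 1 gene of the 4 whose libraries at 10 µg/ml were all below the controls (4.61% of all genes). At 100 against 10 µg/ml, 0 of 4 passed (0.851% of all genes), Csf1r alone had an unadjusted p under 0.05 (14.3% of all genes), and its libraries alone did not overlap (9.99% of all genes). The comparisons with control share the 3 control libraries.

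**Figure D3:**
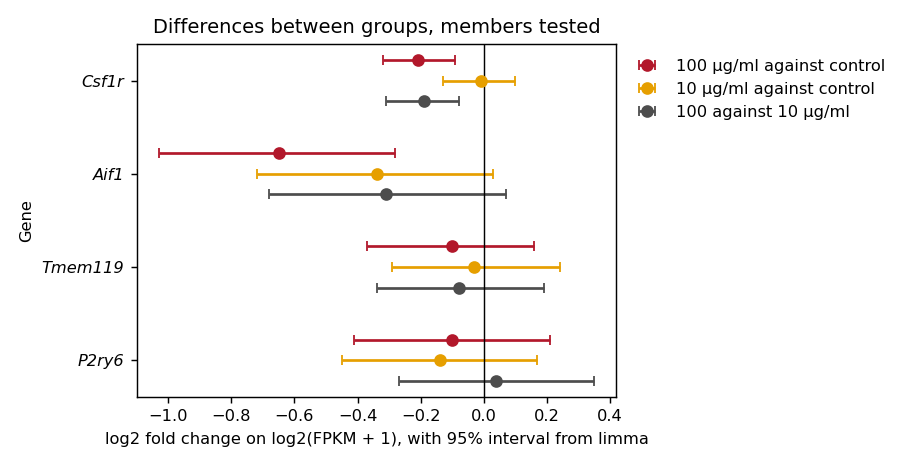
Log2 fold change on the log2(FPKM + 1) scale for the 4 identity genes tested, with the 95% interval from limma, for both doses against control and for 100 against 10 µg/ml. The intervals of Csf1r at 100 µg/ml and of Aif1 at 100 µg/ml against control lie below 0, and all others except that of Csf1r between the doses include 0.

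The genes whose levels followed each expressed identity gene most closely were found by Pearson correlation of log2(FPKM + 1) over the 9 libraries, given as a description since libraries of the same group share their treatment. For Csf1r they were Mrc1 (r = 0.982), the mannose receptor of macrophages, and Cnnm2 (r = 0.978). For Aif1 they were 0610038B21Rik (r = 0.959) and Fubp3 (r = 0.940). For Tmem119 they were Gdpd3 and Gm3362 (both r = 0.920), and for P2ry6 they were Fam214b (r = 0.958) and Tmem80 (r = 0.908).

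The other nucleotide receptors and their relatives showed which members of the family the line does carry. Of 9 such genes, 4 were expressed. P2rx4 and P2rx7, the ATP-gated channels, had means of 32.7 and 31.4 FPKM, P2ry2, a receptor for ATP and UTP, had 16.1 FPKM, and P2ry1, a receptor for ADP, had 3.48 FPKM. P2ry1 was thus above the other ADP receptors P2ry13 and P2ry12 in this line. The remaining 5 were absent or nearly so: P2ry10 and Gpr171 were listed at 0 everywhere, and P2ry14, P2rx1 and P2ry4 were above 0 in 4, 1 and 1 of the 9 libraries. None of the 4 tested passed the adjusted threshold in any comparison (limma), and 1 of the 4 had an unadjusted p under 0.05 at 100 µg/ml against control, where 19.4% of all genes did, so that this count is no result about the receptors. It was P2ry1, at 3.69, 3.97 and 3.53 FPKM in control cells and 2.77, 3.10 and 3.13 FPKM at 100 µg/ml. Its difference was -0.24 on the log2 scale (interval -0.46 to -0.02; limma, adjusted p = 0.218). The fold changes of P2ry2, P2rx4 and P2rx7 were 0.05, 0.06 and 0.05.

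**Figure D4:**
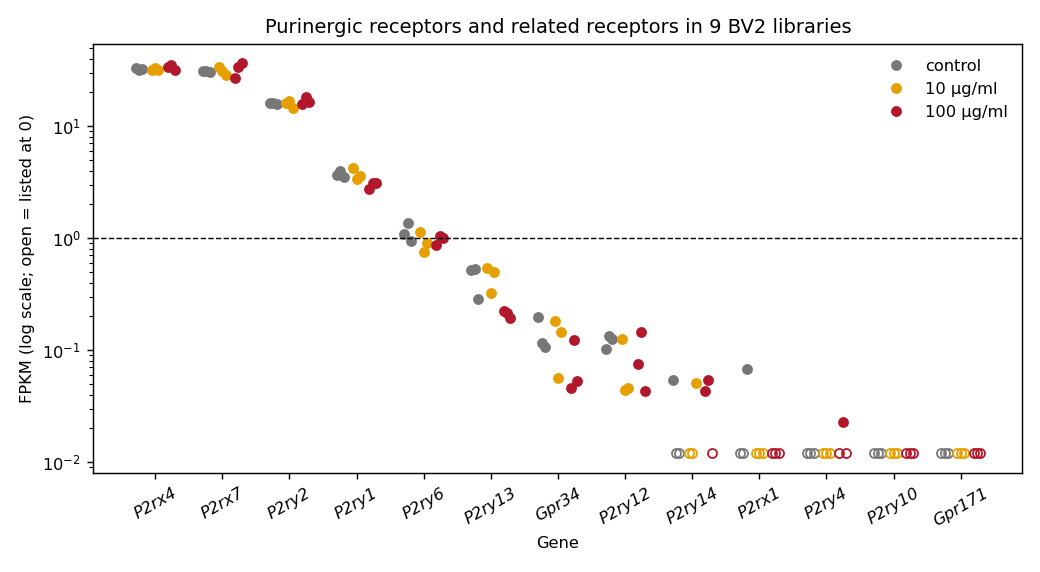
FPKM (log axis) of nucleotide receptors and related receptors in the 9 BV2 libraries, coloured by group; open points are libraries in which a gene is listed at 0, drawn at an arbitrary low position, and the dashed line is 1 FPKM. P2rx4, P2rx7, P2ry2 and P2ry1 lie above the line in every library, whereas P2ry12, P2ry13 and Gpr34 lie below it.

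Ligands and partners of the 9 genes were looked at next. Csf1, a ligand of Csf1r, was expressed, with 20.4, 16.2 and 17.6 FPKM in control cells and 21.7, 24.9 and 24.8 FPKM at 100 µg/ml. The Csf1 libraries at 100 µg/ml were all above the controls, opposite in sign to Csf1r, and the log2 fold change was 0.38 (interval 0.16 to 0.60; limma, adjusted p = 0.0813). Il34, the other ligand, had a mean of 0.107 FPKM, and Cx3cl1 was above 0 in 1 of 9 libraries. Tgfb1 and its receptors Tgfbr1 and Tgfbr2 were expressed, with means of 48.1, 21.6 and 6.26 FPKM, and their fold changes at 100 µg/ml against control were 0.06, -0.13 and -0.13 (limma, adjusted p = 0.647, 0.432 and 0.403). Of the 12 ligands and partners tested, 0 passed the adjusted threshold in any comparison (limma), and 2 had an unadjusted p under 0.05 at 100 µg/ml against control, a share near the 19.4% of all genes. At 100 against 10 µg/ml, 4 of the 12 had an unadjusted p under 0.05 (14.3% of all genes). There the libraries at 100 µg/ml were all lower for 4 of the 12, Tgfbr1, Tgfbr2, Nrros and Lcp1 (9.99% of all genes). They were all higher for 1, Csf1 (1046 of 11161 genes tested).

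A wider list of 24 signature genes known from microglia also held expressed and unexpressed genes. The list is not restricted to microglia: Itgam and Tyrobp were also among the macrophage markers above. A mean of 1 FPKM was reached by 14 of them, among them Trem2, a lipid-sensing receptor, at 126 FPKM. The other 10 did not reach it. Siglech, Pros1, Ltc4s and Sparc were listed at 0 in all libraries, and Olfml3, Fcrls, Slc2a5, Adora3, Crybb1 and Lpcat2 were below 1 FPKM. Fcrls was at 0.0997, 0.0608 and 0.0304 FPKM in control cells and higher, at 0.13, 0.163 and 0.349 FPKM, at 100 µg/ml. Libraries at 100 µg/ml all above the controls were also seen for 1393 of the 11161 genes tested. Fragment numbers of Fcrls were not estimated, and at such values they are small. Olfml3, Slc2a5, Adora3, Crybb1 and Lpcat2 overlapped between control and 100 µg/ml. All of these genes were below the requirement for testing. At 100 µg/ml against control, 4 of the 14 fell and 0 rose, where 1.41% of all genes fell (limma). All 14 fold changes were below 0, with a median of -0.23 beside 0 for all genes, and 6 of 14 had libraries all below the controls, which held for 11.4% of all genes. The summed macrophage markers were lower in the same libraries, mostly through Lyz2 and with Cd14 in the other direction, as given above, and their part in these values was not tested.

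Among the genes past the threshold were chains of complement C1q. C1qa fell from 7.27, 8.46 and 7.17 FPKM in control cells to 4.49, 3.14 and 3.46 FPKM at 100 µg/ml (-0.89 ± 0.11 on the log2 scale; limma, adjusted p = 0.00962). C1qa was also among the genes that the study had picked for a network from these same libraries, so its direction is not independent evidence. C1qc fell from 86.9, 85.2 and 77.8 to 62.2, 47.2 and 53.6 FPKM (-0.61 ± 0.09; limma, adjusted p = 0.0161). In both genes the groups did not overlap. The third chain, C1qb, had a fold change of -0.45 and did not pass (limma, adjusted p = 0.0606), nor did Cd33, a sialic acid-binding receptor, whose -0.71 was larger in size than that of C1qc (limma, adjusted p = 0.0695). Selplg, the ligand of P-selectin, fell by 0.43 on the log2 scale (limma, adjusted p = 0.0161), and Mertk, a receptor for dying cells, fell by 0.42 (limma, adjusted p = 0.0411). The fold change of Trem2 was -0.16 (interval -0.38 to 0.05; limma, adjusted p = 0.396). The call of C1qa was lost without control replicate 2 (limma, adjusted p = 0.0561), that of Selplg without control replicate 1 or 2 (up to 0.0862) and that of C1qc without control replicate 1 or 2 or replicate 3 at 100 µg/ml (up to 0.0859). Mertk was lost in 7 of the 9 limma fits that left out a library, with an adjusted p of up to 0.151 without control replicate 1, and a fit of the 6 libraries compared called 0 of the 14.

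At 10 µg/ml against control, 0 of the 14 signature genes passed the threshold (0% of all genes) and 0 had an unadjusted p under 0.05 (3.28% of all genes; limma). For 2 of the 14, C1qa and C1qb, the libraries at 10 µg/ml were all below the controls (4.61% of all genes). At 100 against 10 µg/ml, 3 of 14 were lower past the threshold, C1qa (-0.66), C1qc (-0.55) and Selplg (-0.37), where 0.636% of all genes were lower (limma, adjusted p = 0.0419, 0.0396 and 0.0459). Each of these 3 calls was lost in 8 of the 9 limma fits that left out a library, the exception being the fit without replicate 1 at 100 µg/ml, with adjusted p up to 0.163, 0.173 and 0.160 without replicate 1 at 10 µg/ml.

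All 10 transcription factors of the macrophage lineage that were found in the table were expressed. Spi1, which encodes PU.1, had a mean of 135 FPKM and differed by -0.03 on the log2 scale between 100 µg/ml and control (interval -0.16 to 0.10; limma, adjusted p = 0.833). Maf was at 30.4, 30.5 and 32.1 FPKM in control cells, at 32.7, 33.1 and 29.2 FPKM at 10 µg/ml, and at 22.2, 22.4 and 20.5 FPKM at 100 µg/ml, and it was the 1 gene of the 10 past the threshold, where 2.11% of all genes passed (-0.50 ± 0.06; limma, adjusted p = 0.00962). Its 3 libraries at 100 µg/ml were below all others. The call was lost without control replicate 2 (limma, adjusted p = 0.0561). Between the doses, Maf was lower at 100 µg/ml (-0.52; limma, adjusted p = 0.0138). This call was lost without replicate 1 or 2 at 10 µg/ml or replicate 3 at 100 µg/ml, with a limma adjusted p of up to 0.0823 without replicate 1 at 10 µg/ml.

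**Figure D5:**
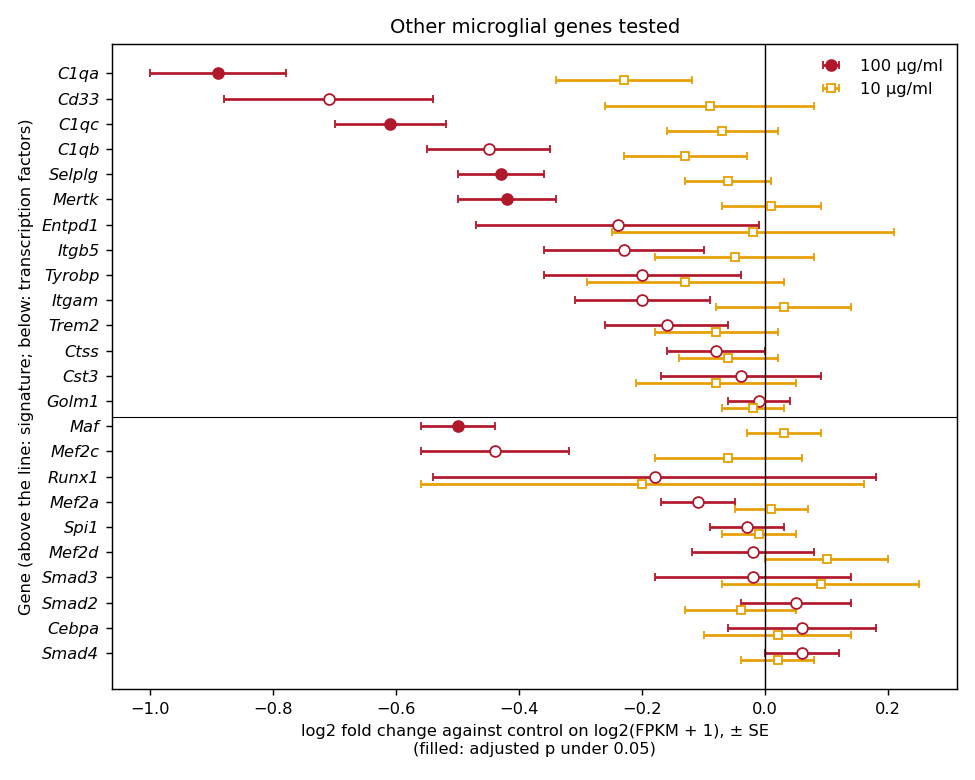
Log2 fold change against control on the log2(FPKM + 1) scale (± SE) for the 14 signature genes and 10 transcription factors tested, at 100 µg/ml (circles, filled where the adjusted p was under 0.05) and at 10 µg/ml (squares). C1qa, C1qc, Selplg, Mertk and Maf are filled and lie left of 0, and no gene is called at 10 µg/ml.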

How the data were processed

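RNA of BV2 cells was sequenced in 9 libraries after oligo(dT) selection. The study names both a stranded kit and a TruSeq RNA Sample Prep Kit. The authors filtered reads by quality, aligned them with TopHat and computed the deposited FPKM values with Cufflinks 2.1.1 and Ensembl release 77, corrected for fragment bias and multiply mapped reads. A gene's FPKM also depends on what other genes take of a library. Samples were grouped by their labels, and 0 columns of values had no sample. Genes were joined by identifier. Irf8 and Tubb3 were not analysed here, and some genes of the lists are not reported here. Depth, estimated from steps between low values, was 12.0 to 14.8 M (mega) fragments per library. Of 4683 low values, 74.6% were no more than 0.25 away from whole (chance: 50%), so fragment numbers, computed on the longest coding transcript in GENCODE M21, are approximate.

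Genes averaging 1 FPKM or more (11161) were tested on log2(FPKM + 1) in R 4.3.3. A single limma 3.58.1 model held all 3 groups, with a variance trend in eBayes and Benjamini-Hochberg adjusted p-values at 0.05, and was tested on simulated data. Python 3.11.15 with pandas 2.3.3 and with numpy 2.4.6 made the tables. The 9 genes and the lists were chosen with earlier results of these data known. Named were the 9 genes, list genes past the threshold, all nucleotide receptors, 10 ligands, factors and relatives set by name, and the 2 genes most like each expressed identity gene. Other genes were named after their values were seen. Alternatives were a pseudocount of 0.1 or 0.01, no filter or one at 5 FPKM, normalization by quantiles or median of ratios, eBayes without trend, a replicate block, fits of only 6 libraries, and fits without each library. Cuffdiff needs alignments, which are not analysed here.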

Additional observations from a re-analysis of the deposited data

Results flagged for a closer look

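Effects at both doses against control differed for 4 genes of the wider lists, since the direct comparison of 100 with 10 µg/ml passed the adjusted threshold in limma. The log2 difference was -0.66 for C1qa, -0.55 for C1qc, -0.52 for Maf and -0.37 for Selplg, each lower at 100 µg/ml. With a replicate block none of the 4 passed (limma, adjusted p from 0.0516 to 0.111). None of the 9 identity genes met this measure.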

How the results depend on the processing

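None of the 4 identity genes tested passed the threshold under any of the alternatives run. For Aif1 at 100 µg/ml against control, the log2 fold change ran from -0.81 to -0.48 over 19 alternatives (limma, adjusted p from 0.0558 without replicate 2 at 100 µg/ml to 0.232 without control replicate 1), and for Csf1r from -0.24 to -0.17 (adjusted p from 0.0581 to 0.234). Small differences changed sign: Csf1r at 10 µg/ml against control was 0.02 with quantile normalization and -0.03 to 0.00 when a library was left out, Tmem119 there -0.13 to 0.05, and between the doses P2ry6 was -0.03 to 0.11 and Tmem119 -0.15 to 0.02. At 5 FPKM, 2 of the 9 genes counted as expressed, and at 0.1 FPKM 6 did. The 4 signature genes called at 100 µg/ml against control became 3 with a replicate block and 0 with only the 6 libraries compared, and 0 to 6 when a library was left out. The 3 called between the doses became 0 with no filter, with the replicate block, with only the 6 libraries, and with no filter and pseudocount 0.1, which was added after seeing the data, and 0 to 4 when a library was left out. Over all genes, 236 calls at 100 µg/ml became 106 with the replicate block and 22 with the 6 libraries, and 31 to 539 when a library was left out, and 95 between the doses became 13, 6 and 8 to 191. With the block, the Maf call between the doses was also lost (limma, adjusted p = 0.0516), and that against control was not (0.0344). At 10 µg/ml against control 0 to 5 genes were called. Replicate numbers did not pair the libraries: deviations of same-numbered libraries correlated at -0.088 to 0.152, over 0.1 in 1 of 9 pairs, and a library correlated best with its own number in 6 of 18 checks. Depth limits the 5 genes below 1 FPKM, with about 18.5 fragments or fewer in any library. The fit without replicate 1 at 100 µg/ml called more genes than the full fit, 539 against control and 191 between the doses. At 100 µg/ml, the fits of 6 libraries and those without any other library called fewer genes than the full fit in both comparisons. The causes of these differences were not tested.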
